A study of Mus musculus with 28 samples.

Results

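Expression of 10 genes of the disease-associated microglia programme was measured in microglia sorted from single mouse retinas. The retinas were naïve or taken after an injection of lipopolysaccharide (LPS) into the eye, with different retinas at each time. The genes are Apoe, Trem2, Tyrobp, Lpl, Cst7, Clec7a, Spp1, Gpnmb, Igf1 and Cd9. They were taken by gene symbol from the 40021 genes listed. The rule used no measured value, but the choice was made with earlier results of these data known. All groups were male Cx3cr1CreER:R26-tdTomato heterozygotes on a C57BL/6 background, given tamoxifen at 4 to 5 weeks of age, so that a Cre recombinase under the control of the fractalkine receptor gene switched on a red fluorescent protein in microglia. Every animal, controls included, therefore carried 1 modified Cx3cr1 allele. Endotoxin-induced uveitis (EIU), an acute and self-limiting inflammation of the eye, was induced 4 weeks after tamoxifen, and naïve controls received no injection. No group injected with vehicle alone is among the samples, so LPS and the injection itself cannot be told apart. Live cells with a high tdTomato signal were sorted, a gate meant to leave unlabelled cells out. Of 28 retinas, 10 were naïve, and 6, 5 and 7 were taken 4 h, 18 h or 2 weeks after the injection. Experiment 1 gave 6 naïve retinas and 3, 4 and 4 injected ones at these times, and experiment 2 gave 4 naïve retinas and 3, 1 and 3 injected ones. Whether 2 retinas came from the same mouse is not given in the labels, so p-values measure the spread between retinas.

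Disease-associated microglia are a state described around amyloid plaques, dying neurons and demyelinated fibres. Its entry is commonly drawn as a loss of homeostatic genes followed by a gain of genes for phagocytosis, lysosomes and lipid handling, and the later step is known to need the receptor TREM2. TREM2 binds lipids and lipoproteins, among them apolipoprotein E, and has no signalling tail of its own, so it passes its signal through the adaptor TYROBP (also called DAP12). Retinal microglia are known to enter a similar state when photoreceptors degenerate.

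Values are RPKM, in which the reads of a gene are scaled by the length of its transcript and by the depth of the library, and changes are differences of log2(RPKM + 1). A gene was called when its adjusted p, from limma with Benjamini-Hochberg adjustment over the 13164 genes that reached 1 RPKM in 5 or more retinas, was at most 0.05 and its fold change was at least 2. All 10 members passed that filter. Gpnmb did so with exactly 5 retinas, 3 at 18 h and 2 at 2 weeks, so that it passed only through the groups in which it was high. Retinas had between 7510000 and 19700000 alignments and between 6552 and 11825 genes at an RPKM of 1 or more. Of 28 retinas, 4 had fewer than 8000 such genes, namely naïve retinas 3 and 4, 18 h retina 4 and 2-week retina 1. The sum of 8 microglial markers was 6460 to 12900 RPKM in naïve retinas, 2100 to 6500 at 4 h, 3900 to 6120 at 18 h and 7570 to 12500 at 2 weeks, and all 8 reached an RPKM of 1 in each group. The sum of 6 rod photoreceptor markers ranged from 213 to 4740 RPKM over the retinas of the 4 groups. Markers of T and NK cells summed to at most 0.752 RPKM in naïve, 0.418 at 4 h and 0.984 at 2-week retinas, and to between 10.7 and 349 RPKM at 18 h. The sum of 8 neutrophil markers was at most 0.104 RPKM in naïve, 0.264 in 4 h and 0.547 in 2-week retinas. At 18 h it ranged from 0 to 15.8 RPKM, with a median of 1.08.

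At 18 h, 4 of the 10 genes were called. Trem2 and Cd9 fell, and Cst7 and Spp1 rose. The DNA just before the start of Trem2, Cst7 and Spp1 is shown for the receptor gene, which fell at this time, and for both genes that rose. Each run holds 250 bases upstream of a RefSeq transcription start in GRCm38.p6, written 5′ to 3′ on the coding strand, with motif matches in capitals. RefSeq windows were found for 8 of the 10 members. Tyrobp and Lpl had none.
Trem2 (chr17:48346151-48346400, plus strand): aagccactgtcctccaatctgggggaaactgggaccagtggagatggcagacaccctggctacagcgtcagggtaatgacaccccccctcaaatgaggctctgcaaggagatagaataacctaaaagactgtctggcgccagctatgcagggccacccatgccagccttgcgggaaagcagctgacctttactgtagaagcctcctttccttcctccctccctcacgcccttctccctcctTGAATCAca
Cst7 (chr2:150570165-150570414, plus strand): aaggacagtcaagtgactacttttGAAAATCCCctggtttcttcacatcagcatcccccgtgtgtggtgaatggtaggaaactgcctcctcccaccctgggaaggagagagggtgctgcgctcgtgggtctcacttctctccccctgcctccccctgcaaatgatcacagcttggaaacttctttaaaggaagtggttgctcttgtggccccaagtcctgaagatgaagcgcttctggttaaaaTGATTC
Spp1 (chr5:104434861-104435110, plus strand): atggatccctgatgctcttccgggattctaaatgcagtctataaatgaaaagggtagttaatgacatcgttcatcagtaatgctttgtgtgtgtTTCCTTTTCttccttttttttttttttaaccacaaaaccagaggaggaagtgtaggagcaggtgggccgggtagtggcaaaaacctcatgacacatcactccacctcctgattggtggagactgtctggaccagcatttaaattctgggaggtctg
The capitals in Trem2 are a match to TGANTCA, the AP-1 motif, which starts 9 bases before the transcription start. In Cst7 the first capitals are a match on the other strand to GGGANNTTC, most of an NF-kappa B site, 226 bases before the start, and the last are the opening letters of an AP-1 match that begins 6 bases before the start and runs past it. In Spp1 they are a match on the other strand to GAAANNGAA, most of an interferon-stimulated response element, 156 bases before the start. Another Spp1 window, with upstream bases at chr5:104435942-104436191, held no match and is not shown. Both strands were searched in windows that also held 50 bases after the start. Of 32851 RefSeq windows of this length, 7.81% held the AP-1 letters, 3.94% the NF-kappa B letters and 8.56% the interferon element letters. Of the 8 members with a window, 4 held the AP-1 letters (Trem2, Cst7, Gpnmb and Igf1), 1 the NF-kappa B letters (Cst7) and 3 the interferon element letters (Apoe, Spp1 and Cd9), so that genes that rose, fell and were not called are among them. Apoe, Spp1 and Clec7a had more than 1 window and counted with a match in any, whereas the shares are per window. CACGTG, the E-box bound by MITF and TFEB, regulators of lysosomal genes, was in 7.15% of all windows and in 0 of the 8 members. These matches describe letters, and no binding was measured.

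**Figure D1:**
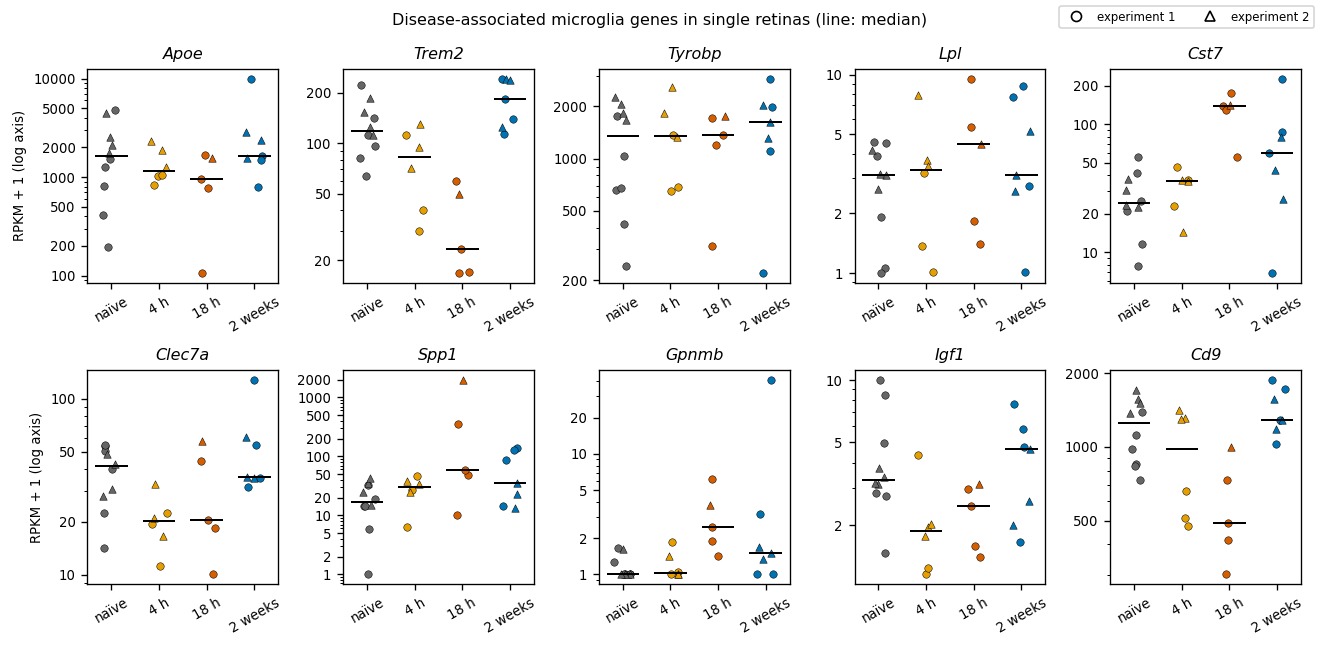
RPKM + 1 on a log axis for the 10 genes in each of 28 retinas, by group, with circles for experiment 1, triangles for experiment 2 and a line at the group median. All 5 retinas at 18 h lie below the naïve retinas for Trem2, and 4 of 5 lie above them for Cst7 and Spp1.

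The receptor gene Trem2 (ENSMUSG00000023992, chr17:48346401-48354147) had the smallest adjusted p of the 10 at 18 h. Naïve retinas ranged from 62.6 to 223 RPKM with a median of 118 and a mean of 129 ± 48.7 (SD, n = 10). At 4 h the range was 29.2 to 129 with a median of 82.4. At 18 h the 5 retinas held 59.0, 22.3, 16.1, 15.8 and 48.7 RPKM, a mean of 32.4 ± 20.1 (SD, n = 5), and each was below every naïve retina. Among all genes tested, 1.30% had all 18 h retinas below all naïve retinas. At 2 weeks the range was 113 to 243 RPKM with a median of 184. Trem2 fell by 2.08 on the log2 scale at 18 h (SE 0.37, limma adjusted p = 0.000519), a 4.23-fold lower level. Within experiment 1 the log2 difference was -2.13 (limma adjusted p = 0.0261), and within experiment 2, with 1 retina at 18 h, it was -1.52 (limma adjusted p = 0.122). The step from 4 h to 18 h did not pass, with a log2 difference of -1.29 (limma adjusted p = 0.0650), and it passed when naïve retina 4, 4 h retina 2 or 3, or 18 h retina 1 or 5 was left out, with adjusted p between 0.0227 and 0.0499. From 18 h to 2 weeks Trem2 rose by 2.61 (SE 0.40, limma adjusted p = 8.57e-05), and all 7 retinas at 2 weeks lay above all 5 at 18 h, as did 2.09% of all genes tested. In bulk libraries a lower share of cells with a transcript and less transcript per cell cannot be told apart.

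Tyrobp (ENSMUSG00000030579, chr7:30413760-30417585), the adaptor through which TREM2 signals, was not called at any time. It ranged from 241 to 2257 RPKM in naïve retinas with a median of 1350, and from 646 to 2589 at 4 h with a median of 1348. At 18 h the values were 1720, 1360, 1200, 312 and 1760 RPKM. At 2 weeks the range was 218 to 2887 with a median of 1618. The log2 difference from naïve was 0.10 at 18 h (95% interval -0.99 to 1.19, limma adjusted p = 0.950). The lowest Tyrobp values went with low detection. The 4 retinas with under 8000 genes held 218 to 419 RPKM, and the other 24 held 646 to 2890.

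The 2 genes were set side by side after their values were seen, so their ratio is given with no test. The log2 ratio of Trem2 to Tyrobp averaged -3.06 ± 0.80 (SD, n = 10) in naïve retinas, -4.15 ± 0.41 (n = 6) at 4 h, -5.24 ± 0.78 (n = 5) at 18 h and -2.87 ± 1.01 (n = 7) at 2 weeks. The highest 18 h ratio was -4.22 and the lowest naïve ratio was -4.17, a narrow gap. The 4 h difference from naïve was -1.09, and ran from -1.46 to -0.49 over 5 other settings. These averages pool the experiments. Mean naïve Tyrobp was 798 RPKM in experiment 1 and 1953 in experiment 2, and mean naïve Trem2 was 119 and 144. TYROBP also serves other receptors of myeloid and NK cells.

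**Figure D2:**
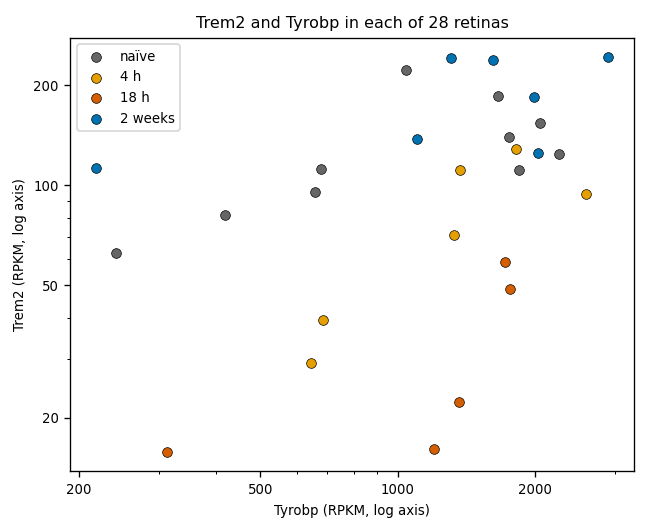
Trem2 against Tyrobp in RPKM, both on log axes, with 1 point for each of 28 retinas coloured by group. The 18 h retinas sit at 15.8 to 59.0 RPKM of Trem2 across a Tyrobp range of 312 to 1760 RPKM.

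Of the genes that encode ligands and secreted proteins, Apoe and Lpl did not pass in any comparison with naïve retinas. Apoe (ENSMUSG00000002985, chr7:19696109-19699188, minus strand), which encodes the lipoprotein that TREM2 binds, ranged from 196 to 4820 RPKM in naïve retinas with a median of 1658. At 18 h it was 1690, 771, 955, 105 and 1570 RPKM, and at 2 weeks it ranged from 793 to 10004 with a median of 1628. The log2 difference at 18 h was -0.92 (95% interval -2.21 to 0.37, limma adjusted p = 0.486). Apoe is also abundant in border-associated macrophages, and the sum of 8 markers of these cells was 12.2 to 657 RPKM in naïve, 34.3 to 101 in 18 h and 8.13 to 515 in 2-week retinas. The 3 retinas with the most Apoe were 2-week retina 2 and naïve retinas 2 and 7, with 10004, 4820 and 4440 RPKM. They had the 3 highest sums, 515, 657 and 450 RPKM. Naïve retina 1 and 2-week retina 4, with 1540 and 1490 RPKM of Apoe, had sums of only 28.1 and 8.13 RPKM. The 3 retinas with the least Apoe were 18 h retina 4 and naïve retinas 4 and 3, with 105, 196 and 412 RPKM. Their sums of 8 Müller glia markers were 57.5, 77.2 and 55.3 RPKM, where all retinas ranged from 52.7 to 250. The lowest sum was that of 4 h retina 2, with 1040 RPKM of Apoe. The same 3 retinas had few genes at an RPKM of 1 or more, 6969, 6552 and 7088. However, 2-week retina 1, with 6644 such genes, held 1630 RPKM of Apoe. The part of macrophages, Müller glia or low detection in the Apoe values was not tested. Lpl (ENSMUSG00000015568, chr8:68880491-68907448), the enzyme that releases fatty acids from lipoproteins, was low throughout. Its highest value in any retina was 8.57 RPKM, at 18 h, and its median was 2.13 in naïve and 2.11 at 2-week retinas.

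Spp1 (ENSMUSG00000029304, chr5:104435118-104441050) encodes osteopontin, a secreted ligand of integrins and CD44. It ranged from 0 to 42.7 RPKM in naïve retinas with a median of 15.8, and from 5.32 to 46.1 at 4 h with a median of 29.3. At 18 h the values were 349, 48.0, 9.16, 57.2 and 1990 RPKM, so that 4 of 5 retinas lay above the highest naïve retina and the fifth inside the naïve range. Spp1 rose by 2.98 on the log2 scale (SE 0.88, limma adjusted p = 0.0431). The call was lost in 10 of 28 fits with 1 retina left out, namely naïve retinas 1, 3, 5, 6 and 8, 4 h retina 5, 18 h retinas 1, 2 and 5 and 2-week retina 7, with adjusted p from 0.0501 to 0.225. Without 18 h retina 5 the log2 change was 1.95. The call was kept in only 6 of 14 other settings, among them the same fit without the fold limit, which could not lose it. It was lost with a pseudocount of 0.1, with no filter, under both rescalings and with the eye side as a covariate, among others. Within experiment 1 the log2 change was 2.56 (limma adjusted p = 0.229). Within experiment 2 it was 6.19 and rested on that single retina. The same retina had the highest sum of 7 monocyte markers at 18 h, 32.7 RPKM against 0.0321 to 9.31 in the other 18 h retinas, and the sum reached 3.02 in naïve, 13 in 4 h and 26.6 in 2-week retinas. Plac8 made up 27.5 of the 32.7 RPKM, with Ly6c2 at 4.68, Ccr2 at 0.271 and Chil3 at 0, and Plac8 was at 26.6 RPKM in 2-week retina 1. The part of monocytes, which the tdTomato gate should leave out, in the Spp1 value was not tested.

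Igf1 (ENSMUSG00000020053, chr10:87858265-87937042), a growth factor gene, did not pass against naïve retinas at any time. It ranged from 0.470 to 9.03 RPKM in naïve retinas with a median of 2.30, and from 0.157 to 3.33 at 4 h with a median of 0.867. The log2 difference at 4 h was -1.01 (SE 0.40, limma adjusted p = 0.120).

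Cst7 (ENSMUSG00000068129, chr2:150570415-150578944) encodes cystatin F, an inhibitor of lysosomal cathepsins made by microglia in this state and also by NK and cytotoxic T cells. Naïve retinas ranged from 6.77 to 54.8 RPKM with a median of 23.5, and 4 h retinas from 13.5 to 45.5 with a median of 35.4. At 18 h the values were 138, 129, 175, 54.6 and 141 RPKM, a mean of 127 ± 44.2 (SD, n = 5) against 26.8 ± 14.3 (SD, n = 10). Cst7 rose 4.96-fold, or 2.31 on the log2 scale (SE 0.53, limma adjusted p = 0.00730), and 4 of 5 retinas lay above every naïve retina. The log2 change was 2.39 within experiment 1 (limma adjusted p = 0.117) and 2.34 within experiment 2 (limma adjusted p = 0.0872). Against 4 h retinas Cst7 rose by 1.99 (SE 0.59, limma adjusted p = 0.0408), with all 5 retinas above all 6, as in 4.84% of all genes tested. That second call was lost when 4 h retina 1, 3, 5 or 6 or 18 h retina 1, 2, 3 or 5 was left out, with adjusted p from 0.0551 to 0.110.

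Because Cst7 is a gene of T and NK cells too, their markers are given for the same 5 retinas in the same order. The sum of 8 such markers was 10.7, 68.9, 24.3, 349 and 76.5 RPKM, and Nkg7, a granule protein gene of these cells, was at 5.77, 35.5, 11.9, 86.4 and 12.1 RPKM. Nkg7 was listed at 0 in every naïve and 4 h retina. Among the other markers the highest 18 h values were 238 RPKM for Gzma, 18.4 for Klrb1c and 11.3 for Trac. Gzmb reached 6.44, Ncr1 2.82, Cd3d 1.42 and Cd3e 0.297 RPKM. The retina with the highest marker sum had the lowest Cst7 of the 5, and that retina had 6969 genes at an RPKM of 1. The tdTomato gate should leave T and NK cells out, and neither their part in the Cst7 values nor that of low detection was tested. At 2 weeks, where the sums were at most 0.984 RPKM, Cst7 ranged from 5.89 to 227 RPKM with a median of 59.1, and 4 of 7 retinas lay above every naïve retina. The 2-week difference was 1.04 on the log2 scale (SE 0.48, limma adjusted p = 1).

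**Figure D3:**
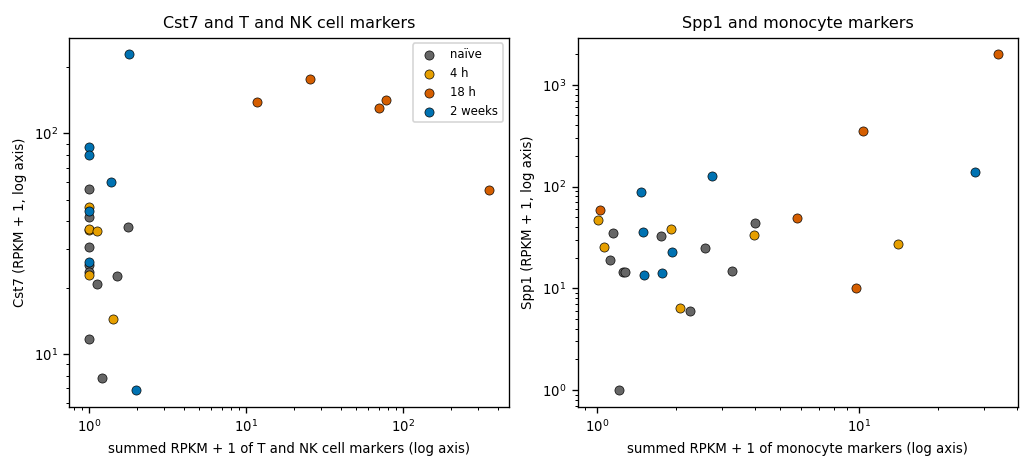
Left, Cst7 against the summed RPKM + 1 of 8 T and NK cell markers, and right, Spp1 against that of 7 monocyte markers, on log axes with 1 point per retina. At 18 h the retina with a T and NK sum of 349 RPKM has 54.6 RPKM of Cst7, and the retina with a monocyte sum of 32.7 RPKM has 1990 RPKM of Spp1.

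Among the membrane proteins, Cd9 (ENSMUSG00000030342, chr6:125460266-125494791, minus strand), a tetraspanin that organises other membrane proteins, fell. Naïve retinas ranged from 735 to 1699 RPKM with a mean of 1207 ± 346 (SD, n = 10). At 4 h they ranged from 473 to 1424 with a mean of 947 ± 442 (SD, n = 6). These 4 h values split by experiment, with 473 to 661 RPKM in experiment 1 and 1295 to 1424 in experiment 2. That difference of 1.30 on the log2 scale did not pass (limma adjusted p = 0.0842). The mean at 18 h within experiment 1 was 484 RPKM. The values at 18 h were 732, 487, 416, 301 and 995 RPKM. Cd9 fell by 1.11 on the log2 scale at 18 h (SE 0.30, limma adjusted p = 0.0218), and 4 of 5 retinas lay below every naïve retina. The fifth, from experiment 2, held 995 RPKM against 1382 to 1699 in the naïve retinas of that experiment. The log2 difference was -1.06 within experiment 1 (limma adjusted p = 0.1) and -0.63 within experiment 2 (limma adjusted p = 0.329). The call was lost without 18 h retina 2, 3 or 4, with adjusted p from 0.0678 to 0.0871. From 18 h to 2 weeks Cd9 rose by 1.38 (SE 0.32, limma adjusted p = 0.0112), with all 7 retinas at 2 weeks above all 5 at 18 h, as in 2.09% of all genes tested. That call was lost in 2 of 14 other settings, among them experiment 2 alone, where the log2 difference was 0.43 (limma adjusted p = 0.448).

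Clec7a (ENSMUSG00000079293, chr6:129461591-129472779, minus strand), which encodes the beta-glucan receptor dectin-1, ranged from 13.1 to 53.4 RPKM in naïve retinas with a median of 40.3, and from 10.2 to 31.5 at 4 h with a median of 19.2. The log2 difference at 4 h was -0.87 (SE 0.38, limma adjusted p = 0.179), and the groups overlapped. At 18 h it was 43.3, 19.4, 17.4, 9.02 and 56.4 RPKM, above and below the naïve range in 1 retina each. Gpnmb (ENSMUSG00000029816, chr6:49036546-49070929), a lysosomal membrane glycoprotein gene, was listed at 0 in 6 of 10 naïve retinas and was at most 0.652 RPKM in the others. At 18 h it was 5.24, 0.899, 1.49, 0.433 and 2.79 RPKM, and 4 of 5 retinas lay above every naïve retina. The difference did not pass (limma adjusted p = 0.178). Gpnmb passed the filter only through 18 h and 2-week retinas, so nothing is read from this test or from the lack of overlap. For the longest Gpnmb transcript 1 read is worth 0.0137 to 0.0360 RPKM. A single 2-week retina, the second, held 40.3 RPKM, while the other 6 held 0 to 2.17.

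**Figure D4:**
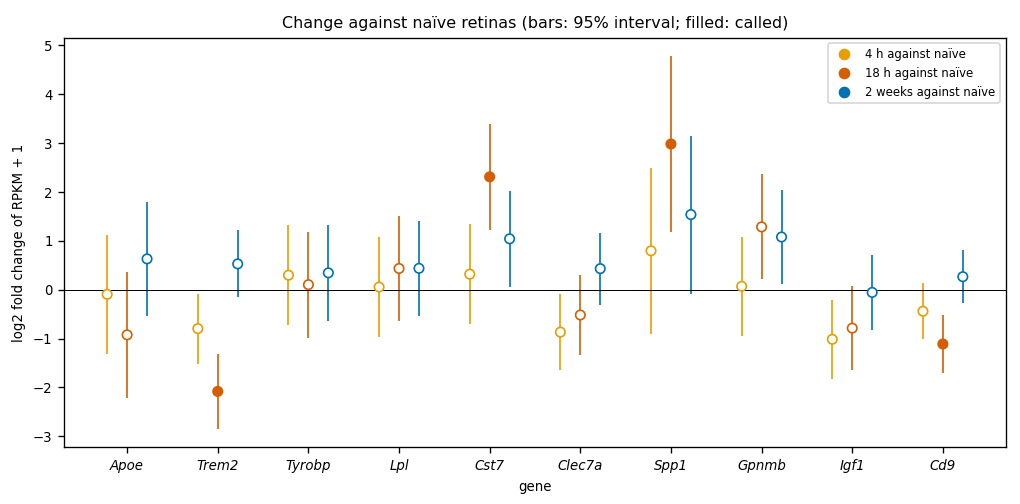
Log2 fold change of RPKM + 1 for the 10 genes at each of the 3 times against naïve retinas, with bars for the 95% interval and filled points for called genes. At 18 h Trem2 and Cd9 are filled below 0, and Cst7 and Spp1 above 0.

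Over the 10 genes, the counts differed by time. At 4 h limma called 0 of 10, with 3 at an unadjusted p under 0.05 (Clec7a, Igf1 and Trem2, each with a negative difference), a level reached by 20.5% of all genes, and a one-way analysis of untransformed RPKM also called 0. Over all genes tested, 3.68% were called up and 4.39% down at 4 h. At 18 h, 2 of 10 were called up and 2 down, against 2.84% and 1.85% of all genes, and the median difference of the 10 was -0.21 against -0.08 for all genes. At 2 weeks limma called 0 of 10, with 2 at an unadjusted p under 0.05 (Cst7 and Gpnmb), a level reached by 2.87% of all genes, and the untransformed analysis called 0. For Gpnmb nothing is read from this, since it passed the filter through the 18 h and 2-week groups and its 2-week mean rests on 1 retina. At that time 0.00760% of all genes were called up and 0% down. The median 2-week difference of the 10, Gpnmb among them, was 0.48 against 0.07 for all genes. The 10 differences ranged from -0.06 to 1.54. From 4 h to 18 h, 1 of 10 was called up and 0 down, against 2.92% and 2.51% of all genes. From 18 h to 2 weeks, 2 of 10 were called up and 0 down, against 1.10% and 1.55%.

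The 2-week retinas came from both experiments, and the difference from naïve retinas was compared between them. limma called 0 of 10 genes for that comparison, and 0% of all genes tested, with 1 of the 10 at an unadjusted p under 0.05, as were 2.91% of all genes. That gene was Spp1. In experiment 1 its 2-week values were 139, 86.6, 13.2 and 125 RPKM against 0 to 31.9 in naïve retinas, and 3 of 4 lay above all naïve retinas of that experiment. In experiment 2 they were 12.5, 21.7 and 34.7 RPKM against 13.7 to 42.7. The change in experiment 2 minus that in experiment 1 was -3.14 on the log2 scale (SE 1.33, limma adjusted p = 1). For Trem2 it was -0.12 (SE 0.66), with 113 to 243 RPKM at 2 weeks in experiment 1 and 125 to 242 in experiment 2. Naïve retinas of experiment 2 held 1657 to 2257 RPKM of Tyrobp against 241 to 1747 in experiment 1, and 1382 to 1699 of Cd9 against 735 to 1388, and neither difference passed (limma adjusted p = 0.122 and 0.134).

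The 6 lists of related genes were chosen with earlier results of these data known and are described by counts. For each list, the shares of all genes called up and down apply. They were 3.68% and 4.39% at 4 h, 2.84% and 1.85% at 18 h, and 0.00760% and 0% at 2 weeks. Of 30 other genes of the disease-associated programme, 8 rose and 1 fell at 4 h, 10 rose and 1 fell at 18 h, and 0 passed at 2 weeks, with median differences of 0.33, 0.68 and 0.44 against -0.11, -0.08 and 0.07 for all genes. The chemokine genes Ccl4 and Ccl3 rose by 8.73 and 7.21 on the log2 scale at 4 h (limma adjusted p = 1.35e-10 and 4.29e-13). Ch25h, which makes 25-hydroxycholesterol, rose by 6.76 at 4 h and by 7.46 at 18 h (limma adjusted p = 7.81e-09 and 9.74e-09), from a naïve mean of 1.78 ± 2.20 RPKM (SD, n = 10) to 437 ± 307 (SD, n = 5) at 18 h. At 18 h Ccl4 was still higher by 3.41 and Lilrb4a, an inhibitory receptor gene, by 3.28 (limma adjusted p = 0.00478 and 0.0221). Ccl6 fell by 1.47 at 4 h and 1.98 at 18 h (limma adjusted p = 0.000198 and 1.73e-05). The other genes that rose at 4 h were Csf1, Fth1, Lilr4b, Lilrb4 and Lilrb4a, by 2.06 (Fth1) to 3.11 (Lilrb4), and at 18 h B2m, Ccl3, Cd52, Cd63, Fth1, Lilr4b and Lilrb4, by 1.37 (B2m) to 3.22 (Fth1). Lilrb4, Lilrb4a and Lilr4b are near-identical entries between which reads can be divided, so they are not independent. T and NK cells also express B2m and Cd52. The tdTomato gate should leave these cells out, and the part of the T and NK markers seen at 18 h in these values was not tested.

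Of 14 tested genes of TREM2 and TYROBP signalling, 1 rose and 2 fell at 4 h, when 3.68% and 4.39% of all genes did, and 0 passed at 18 h or 2 weeks. At 18 h and 2 weeks, 0 of 14 is close to the shares of all genes. The median differences were -0.12, -0.43 and 0.24, against -0.11, -0.08 and 0.07 for all genes. Malt1, a protease adaptor gene of NF-kappa B signalling, rose by 2.15, while Inpp5d, which encodes the phosphatase SHIP1, and Adam10, a sheddase that cleaves TREM2, fell by 1.59 and 1.44 at 4 h (limma adjusted p = 8.94e-05, 0.0174 and 0.000605). Of 17 lipid-handling genes, Soat1, which esterifies cholesterol, fell by 1.40 at 4 h, and Cd36, a scavenger receptor gene, rose by 2.51 at 18 h (limma adjusted p = 0.0212 and 0.0375). No other gene of that list passed against naïve retinas. Of 13 receptors and binding proteins of osteopontin and IGF1, Cd44, an osteopontin receptor gene, rose by 2.5 at 4 h and 2.08 at 18 h (limma adjusted p = 0.00185 and 0.0262). Igfbp6, which encodes an IGF-binding protein, rose by 1.77 and 2.94 (limma adjusted p = 0.00219 and 1.70e-05), and Itgb3, an integrin chain, fell by 1.61 at 18 h (limma adjusted p = 0.0101).

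Among transcription factor genes of lysosomes and microglial activation, Maf and Bhlhe41 fell by 3.38 and 2.19 at 4 h, and Mef2a by 1.36 at 18 h (limma adjusted p = 3.11e-07, 0.0190 and 0.00175). Cebpb and Runx1 rose by 2.94 and 1.06 at 4 h (limma adjusted p = 0.00463 and 0.0388). Of 16 homeostatic microglia genes, 0 rose and 9 fell at 4 h, 0 rose and 11 fell at 18 h, and 0 passed at 2 weeks. The largest falls at 4 h were those of Gpr34, Sall1 and P2ry13, with log2 differences of -3.54, -2.96 and -2.70, and at 18 h those of Gpr34, Slc2a5 and P2ry12, with -3.81, -3.50 and -3.28 (limma adjusted p at most 0.00269).

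**Figure D5:**
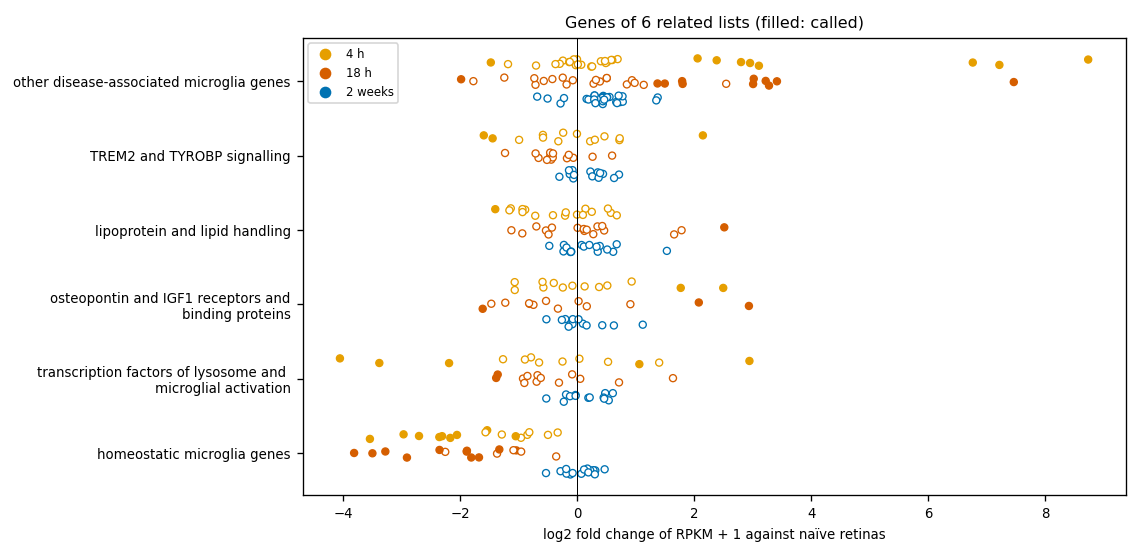
Log2 fold change of RPKM + 1 against naïve retinas for each tested gene of 6 related lists, with 1 point per gene, colours for the times, and filled points for called genes. Filled points of the homeostatic list lie below 0 at 4 h and 18 h, and 0 points of any list are filled at 2 weeks.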

How the data were processed

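Live tdTomato-high cells were sorted from single retinas and their cDNA was made with SMART-Seq v4 and Nextera XT, without strand information. The authors aligned reads to mm10 with STAR 2.5.3a, assigned them to Ensembl transcripts in Partek by expectation maximisation, and deposited RPKM per gene and retina. The deposited table gives alignments per retina, and exact zeros can be estimates. The authors' own comparison tables hold p-values and fold changes and were not used.

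Values were log2(RPKM + 1), for genes that reached 1 RPKM in 5 or more retinas. One limma 3.58.1 fit (R 4.3.3) covered the 4 groups, with a mean-variance trend. A second fit held group by experiment, and p-values had Benjamini-Hochberg adjustment. A call needed an adjusted p no higher than 0.05 and a 2-fold change, the latter not for the comparison of experiments. Members, lists and motifs were chosen with earlier results of these data known. All 10 members are named, with up to 3 rising and 3 falling genes per related list and time, by size of change. Any further gene was picked with its values known. A result among the related lists is not reported here. Coordinates are GRCm38 from GENCODE M21, and promoters are RefSeq, GRCm38.p6. The fit was tested on simulated data and recovered most of the largest planted changes when genes varied independently. That check set no such limit for smaller changes, so a gene that was not called may still have changed. When the residuals of whole retinas were moved together, a few draws gave many false calls, so adjusted p-values do not cover variation that genes share within a retina. Figures used Python 3.11.15. Alternatives covered pseudocounts, filters, scaling, untransformed RPKM, covariates, a replicate block, each experiment, no fold limit and each retina left out. Leaving out retinas with under 8000 genes was chosen after seeing the data.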

Additional observations from a re-analysis of the deposited data

Results flagged for a closer look

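Retinas far from the others of their group on the log2 scale were sought in 40 groups of values, 10 genes in each of 4 groups, where chance marks about 1 in 20, and 7 were found. In 18 h retina 4, Apoe was at 105 RPKM against 771 to 1690 in the other 18 h retinas, Tyrobp at 312 RPKM against 1200 to 1760, and Cst7 at 54.6 RPKM against 129 to 175. That retina had 6969 genes at an RPKM of 1 or more. In 2-week retina 1, with 6644 such genes, Tyrobp was at 218 RPKM against 1100 to 2890. Spp1 was listed at 0 in naïve retina 5 against 4.92 to 42.7 RPKM, and at 5.32 RPKM in 4 h retina 1 against 24.3 to 46.1. Gpnmb was at 40.3 RPKM in 2-week retina 2 against 0 to 2.17, and the same retina held the highest Apoe, 10004 RPKM, and the highest Cst7, 227 RPKM, of any retina. The part of low detection in these values was not tested.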

How the results depend on the processing

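Over the 98 refits of called members under other settings, 74 kept the call, 24 kept the direction only and 0 changed direction. Among the 14 settings was the same fit without the fold limit. It could not lose a call, so every count of kept calls out of 14 includes it. Of 196 refits with 1 retina left out, 175 kept the call and 21 the direction only. Of 14 other settings, the 18 h call was kept in 13 for Trem2, 12 for Cst7, 9 for Cd9 and 6 for Spp1, and with a retina left out in 28, 28, 25 and 18 of 28. Cst7 between 4 h and 18 h was kept in 9 of 14 settings and 20 of 28, and Trem2 and Cd9 between 18 h and 2 weeks in 13 and 12 of 14 and in 28 of 28 each. Members called at 18 h numbered 4, and were 2 on untransformed RPKM, 1 in experiment 1 alone (Trem2) and 1 in experiment 2 alone (Spp1). With 1 retina left out they were 2 to 4. Members called between 4 h and 18 h numbered 1, and were 0 with a pseudocount of 0.1, 0 with no filter, 2 with a filter at an RPKM of 5, 0 in experiment 1 alone and 2 in experiment 2 alone, and 0 to 2 with 1 retina left out. Those called between 18 h and 2 weeks numbered 2, and 1 in experiment 2 alone, where Trem2 and Cd9 were both lost and the call was a fall of Spp1 from its single 18 h retina. With the experiment as a covariate Cd9 at 18 h fell by 0.98, under the 2-fold limit, at an adjusted p of 0.0129 from limma. Leaving out the 4 retinas with under 8000 genes, chosen after seeing the data, kept all 4 calls at 18 h. Experiment 2 alone has a single 18 h retina, which is assumed to vary like the other groups. The cause of these shifts was not tested.

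With a replicate block the counts were 2 at 18 h, 0 between 4 h and 18 h and 1 between 18 h and 2 weeks. Over 34 pairs of same-numbered retinas the correlation of deviations ran from -0.33 to 0.70 and was over 0.1 in 15, so the numbers were not taken as pairs. Gpnmb was listed at 0 in 6 of 10 naïve retinas, and the part of depth in its differences was not tested.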
